A study of Mus musculus with 23 samples.

Results

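The transcripts of 9 genes were followed in B16-F1 mouse melanoma tumors: Nfe2l2, which encodes the transcription factor NRF2, Keap1, the autophagy adaptor gene Sqstm1, and the NRF2 target genes Hmox1, Nqo1, Gclc, Gclm, Srxn1 and Slc7a11. They were taken by symbol from the 56748 genes of the count table, and each symbol matched 1 gene. Sqstm1 was chosen on its measured level in MIX_IP against CONTROL_IP and the other 8 genes by their place in the pathway, all with earlier results of these data known, so the values of that comparison are given here as a description. Other comparisons that use the CONTROL_IP tumors are likewise a description for Sqstm1. None of the 9 genes passed the test across all genes in any of the 12 comparisons. The 2 patterns that stood out in the other comparisons were a higher level of Slc7a11 in NCTD_IT (log2 fold change 1.85, SE 0.49, n = 4 and 4), with an adjusted p of 0.0583 in edgeR, and a higher level of Sqstm1 in PTX_IT (log2 fold change 0.73, SE 0.34, n = 3 and 4), with an adjusted p of 0.786 in edgeR. DESeq2 called both.

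B16-F1 is an established mouse melanoma cell line, derived from the C57BL/6 strain, and its cells were implanted under the skin of the right flank of inbred DBA/2J mice aged 6 to 8 weeks, a strain with mutations in Tyrp1 and Gpnmb. Groups were sex-matched and mice were assigned at random, per the study's methods. Pentoxifylline (PTX, 60 mg/kg), norcantharidin (NCTD, 3 mg/kg) or both together (MIX, the same doses) were given by intraperitoneal (IP) or intratumoral (IT) injection. The groups comprised CONTROL_IP (saline, n = 2), PTX_IP (n = 2), NCTD_IP (n = 2), MIX_IP (n = 2), CONTROL_IT (DMSO, n = 4), PTX_IT (n = 3), NCTD_IT (n = 4) and MIX_IT (n = 4). The route of injection was also the batch in the labels and came with its own vehicle, so route, batch and vehicle cannot be told apart. Each sample is labelled as a tumor, the labels do not say that it came from its own animal, and p-values measure only the spread between these samples. Whole tumors hold host cells beside the melanoma cells, so fewer cells of a type and less RNA per cell cannot be told apart.

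KEAP1 is the sensor of the system: in unstressed cells it holds NRF2 and delivers it for degradation, and oxidants or electrophiles that modify KEAP1 let NRF2 reach the nucleus. There NRF2 pairs with small MAF proteins on antioxidant response elements and raises genes of glutathione synthesis, of quinone, peroxide and heme metabolism, and its own gene. The protein p62, encoded by Sqstm1, carries ubiquitinated cargo to autophagosomes and can bind KEAP1 and draw it into autophagy, and Sqstm1 is itself an NRF2 target. Much of this control acts on protein stability, which transcript counts do not measure.

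Promoter windows are shown for Sqstm1 and Slc7a11, the genes with an unadjusted p below 0.05 in the IT comparisons, and for Srxn1 and Gclm, NRF2 targets whose windows held motif matches. Each is the 250 bases before the RefSeq start site, 5′ to 3′ on the strand of the gene, in the RefSeq build GRCm38.p6, and capitals mark matches to any of 3 motifs searched on both strands. RefSeq windows were found for 7 of the 9 genes, and Hmox1 and Gclc had no entry. The Sqstm1 window lies at chr11:50210821-50211070, the Slc7a11 window at chr3:50443614-50443863, the Srxn1 window at chr2:152105274-152105523 and the Gclm window at chr3:122245307-122245556.
Sqstm1: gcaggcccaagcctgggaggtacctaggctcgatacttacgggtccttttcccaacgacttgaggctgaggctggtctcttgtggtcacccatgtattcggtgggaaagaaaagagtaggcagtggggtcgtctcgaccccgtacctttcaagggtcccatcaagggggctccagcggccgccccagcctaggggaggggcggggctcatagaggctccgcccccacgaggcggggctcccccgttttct
Slc7a11: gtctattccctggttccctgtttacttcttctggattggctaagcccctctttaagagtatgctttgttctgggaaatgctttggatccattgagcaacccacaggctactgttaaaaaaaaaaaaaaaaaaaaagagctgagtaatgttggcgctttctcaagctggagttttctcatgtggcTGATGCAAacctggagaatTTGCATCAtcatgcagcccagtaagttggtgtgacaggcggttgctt
Srxn1: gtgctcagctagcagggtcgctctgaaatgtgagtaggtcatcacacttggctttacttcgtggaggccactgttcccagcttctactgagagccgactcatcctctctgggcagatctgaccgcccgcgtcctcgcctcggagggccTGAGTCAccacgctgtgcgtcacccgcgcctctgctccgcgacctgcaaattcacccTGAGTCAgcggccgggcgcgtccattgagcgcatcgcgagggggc
Gclm: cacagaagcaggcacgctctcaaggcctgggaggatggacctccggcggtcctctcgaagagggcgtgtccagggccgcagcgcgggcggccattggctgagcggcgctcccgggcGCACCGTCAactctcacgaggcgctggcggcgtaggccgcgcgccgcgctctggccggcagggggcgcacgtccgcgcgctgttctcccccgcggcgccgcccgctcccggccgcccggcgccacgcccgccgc

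The first motif was the core of the antioxidant response element, TGACNNNGC, which 4071 of 32851 windows held (12.4%, over windows that run from 250 bases before to 50 bases after the start). Of the 7 genes, Gclm had it 134 bases before the start on the opposite strand, Nfe2l2 had it 240 bases before the start, and Srxn1 had it just after the start, outside the sequence shown. The second was the AP-1 motif TGACTCA (5.20% of windows), which Srxn1 held at 45 and at 102 bases before the start, both on the opposite strand. A TGACTCA followed by GC would match both of these patterns, and neither Srxn1 match was of that kind. The third was TTGCATCA, the amino acid response element bound by ATF4 (0.895% of windows), which Slc7a11 held at 47 bases before the start and, on the opposite strand, at 66 bases. The Sqstm1, Keap1 and Nqo1 windows held none of the 3. A match is a description of these letters and was not tested for binding.

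Raw counts per gene from a 3′ mRNA library were deposited for 23 tumors, with 2861578 to 6702374 counts per tumor. Levels are given in CPM, counts scaled to a common library size with TMM factors, and 3 counts, taken as the floor, corresponded to 0.449 to 1.04 CPM. Levels of different genes are not compared with each other. All 7 melanoma markers were detected in every group, with a summed level of 15319 to 37163 CPM. Several libraries stood apart in ways that the labels do not give. Xist had 15 to 51 counts in the NCTD_IT tumors, 5 to 36 in the PTX_IT tumors and 55 in a CONTROL_IP tumor, against 0 to 2 in each of the other tumors. In NCTD_IT and PTX_IT against CONTROL_IT, Xist and drug thus cannot be told apart. Whether Xist reflects the sex of the mice, stated as matched, was not tested. Mitochondrial transcripts made up 2.42% to 6.32% of counts, with 2.42% to 2.68% in CONTROL_IT, 2.97% to 3.86% in PTX_IT, 2.47% to 6.32% in NCTD_IT and 3.57% to 5.73% in MIX_IT. The nuclear RNA Malat1 was at 76.3 to 96.5 CPM in CONTROL_IT, 74.2 to 424 CPM in PTX_IT, 279 to 692.5 CPM in NCTD_IT and 156 to 497.6 CPM in MIX_IT. The part of these differences in the results was not tested, beyond the values given with each gene.

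In edgeR's quasi-likelihood test with Benjamini-Hochberg adjustment, 0 of 9 genes had an adjusted p below 0.05 in NCTD_IT against CONTROL_IT, where 1.37% of all genes passed. The same count was 0 of 9, beside 0% of all genes, in PTX_IT, MIX_IT, NCTD_IP and PTX_IP against their controls. At an unadjusted p below 0.05, 1 of 9 genes was counted in NCTD_IT (Slc7a11, background 21.6%), 1 in PTX_IT (Sqstm1, background 6.35%), 0 in MIX_IT (background 13%), 1 in NCTD_IP (Nqo1, background 3.59%) and 1 in PTX_IP (Sqstm1, background 5.3%). The Sqstm1 entry in PTX_IP is a description, as it rests on the CONTROL_IP tumors used to choose Sqstm1. With DESeq2 on the 2 groups compared, Slc7a11 passed an adjusted p of 0.05 in NCTD_IT (background 12.5%) and Sqstm1 in PTX_IT (background 0.12%). DESeq2 called 0 of the 9 genes in NCTD_IP (background 0.0805%) and PTX_IP (background 0.0322%). In MIX_IT DESeq2 called 0 of the 4 genes that it gave an adjusted p (background 5.17%). The edgeR counts at an unadjusted p are close to what the background shares would give for 9 genes. The DESeq2 call of Sqstm1 in PTX_IT stood among 15 genes called of 12470.

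Groups did not overlap with their control for Slc7a11 in NCTD_IT (1 of 9 genes, background 16.7% of all genes), for Sqstm1 in PTX_IT (1 of 9, background 7.98%) and for no gene in MIX_IT (background 10%). With 2 tumors a group the background is larger: 3 of 9 genes in NCTD_IP (Sqstm1, Nqo1 and Gclc, background 34.2%) and 2 of 9 in PTX_IP (Hmox1 and Nqo1, background 31.7%). The Sqstm1 entry in NCTD_IP is a description, since the CONTROL_IP tumors were used to choose that gene. The median log2 fold change of the 9 genes was -0.03 in NCTD_IT, -0.19 in PTX_IT, 0.18 in MIX_IT, 0.30 in NCTD_IP and 0.07 in PTX_IP, beside medians over all genes of -0.01 to 0.03. In MIX_IT all 9 values were above 0, from 0.03 to 0.63, and none had an unadjusted p below 0.05 in edgeR.

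**Figure D1:**
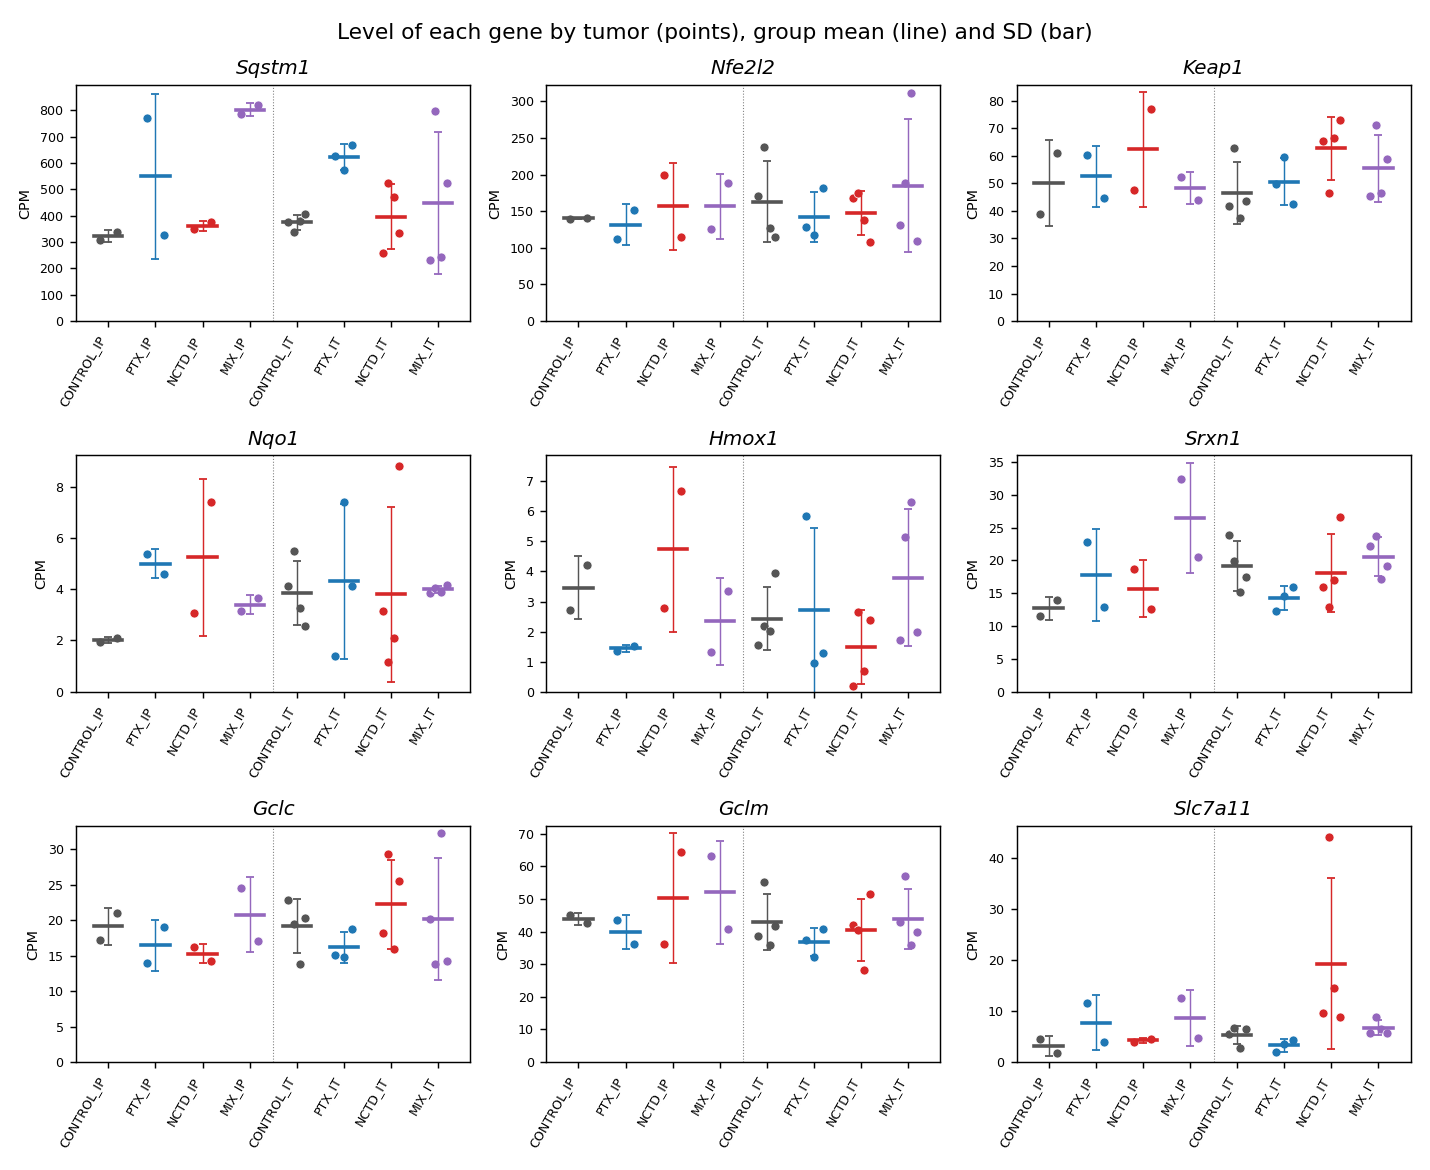
Level of each of the 9 genes in CPM (vertical axis, from 0) in every tumor (points) of the 8 groups, with the group mean (horizontal line) and SD (bar, clipped at 0). Sqstm1 sat at 787 and 820.0 CPM in MIX_IP against 307 and 340 CPM in CONTROL_IP, and Slc7a11 at 8.80 to 44.1 CPM in NCTD_IT against 2.77 to 6.57 CPM in CONTROL_IT.

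Sqstm1 (ENSMUSG00000015837, GRCm39 chromosome 11, 50090193 to 50101654, minus strand), the gene for the cargo adaptor p62, had 48086 counts over all tumors, so counting error was small beside the spread between tumors. The 4 CONTROL_IT tumors lay close together at 375, 338, 379 and 409 CPM, and the 3 PTX_IT tumors lay above them at 629, 572 and 668 CPM. The log2 fold change was 0.73 (SE 0.34, 95% confidence interval 0.004 to 1.46), with an adjusted p of 0.786 in edgeR and 0.00102 in DESeq2. The edgeR model took its spread from all 4 IT groups. With PTX_IT and CONTROL_IT alone in the model, edgeR also called 0 of the 8 genes tested, Sqstm1 included, and 0 of all 11411 genes. Among the IT groups Sqstm1 varied most in MIX_IT, at 233, 799.6, 243 and 525 CPM. Within MIX_IT the tumors thus lay both below and above every control tumor, and the log2 fold change was 0.25 (SE 0.32, adjusted p = 0.781 in edgeR), which became -0.17 without MIX_IT replicate 22. In NCTD_IT, with 259, 525, 471 and 333 CPM, the tumors likewise lay on both sides of CONTROL_IT (log2 fold change 0.08, SE 0.32, adjusted p = 0.907 in edgeR).

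In the IP tumors Sqstm1 was at 307 and 340 CPM in CONTROL_IP and at 348 and 376 CPM in NCTD_IP, a log2 fold change of 0.17 (SE 0.32, adjusted p = 0.999 in edgeR). The CONTROL_IP tumors were used to choose Sqstm1, so its IP comparisons are a description. The PTX_IP tumors were at 771 and 328 CPM, so 1 of them stood far above the controls and the other among them. The PTX_IP log2 fold change of 0.76 (SE 0.32, adjusted p = 0.906 in edgeR) fell to 0.02 without PTX_IP replicate 3 and was 1.25 without PTX_IP replicate 4. PTX_IP replicate 3 also had the highest summed level of melanoma markers of all tumors (37163 CPM), of keratinocyte markers (119 CPM against 0 in the other PTX_IP tumor), and a macrophage marker sum of 754 CPM against 158 CPM. Their part in the Sqstm1 level was not tested.

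The MIX_IT tumors with high Sqstm1, replicates 22 and 24, had fibroblast marker sums of 485 and 887 CPM, and those with low Sqstm1, replicates 21 and 23, had 1864 and 8542 CPM. The 4 CONTROL_IT tumors had fibroblast sums of 106 to 361 CPM. Melanoma marker sums in MIX_IT ran from 15319 CPM in replicate 23 to 28969 CPM in replicate 22. In PTX_IT, where Sqstm1 was above control in all 3 tumors, macrophage marker sums were 945, 1135 and 84.5 CPM against 83.2 to 565.7 CPM in CONTROL_IT. Fibroblast sums in PTX_IT were 798, 669.7 and 249 CPM, the mitochondrial share was 2.97% to 3.86%, above every CONTROL_IT tumor, and Malat1 was at 193, 424 and 74.2 CPM. Their part in the Sqstm1 levels was not tested. With Xist included in the model as a term, the PTX_IT log2 fold change of Sqstm1 was 1.04 in edgeR, with an adjusted p of 1.00.

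Of the regulators, Nfe2l2 (chromosome 2, 75505857 to 75534985), the gene for NRF2 itself, ranged from 109 to 311 CPM over all tumors. The 4 CONTROL_IT tumors were at 170.2, 238, 127 and 115 CPM, and the MIX_IT tumors at 131, 188, 311 and 109 CPM. These groups overlapped throughout, and the Nfe2l2 log2 fold changes against control lay between -0.19 and 0.18 in the 5 tested comparisons. Keap1 (chromosome 9, 21141026 to 21150657), the sensor that holds NRF2, was at 65.2, 46.4, 66.4 and 73.1 CPM in NCTD_IT against 41.7, 62.9, 37.5 and 43.6 CPM in CONTROL_IT. Of the NCTD_IT tumors 3 lay above every control and 1 lay among them, with a log2 fold change of 0.43 (SE 0.21, adjusted p = 0.241 in edgeR). In the other 4 tested comparisons Keap1 differed by 0.07 to 0.32 on the log2 scale.

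Slc7a11 (ENSMUSG00000027737, chromosome 3, 49846975 to 50398063, minus strand) encodes xCT, the transporter that exchanges glutamate for cystine and so supplies cysteine for glutathione. In NCTD_IT it was at 9.56, 44.1, 14.5 and 8.80 CPM, and in CONTROL_IT at 5.41, 6.57, 2.77 and 6.51 CPM. Behind these values were 55, 150, 42 and 33 counts in NCTD_IT and 21, 30, 11 and 23 counts in CONTROL_IT. All 4 treated tumors lay above all 4 controls, and replicate 18 lay far above the other 3. The log2 fold change was 1.85 (SE 0.49, 95% confidence interval 0.81 to 2.88), with an adjusted p of 0.0583 in edgeR and 0.00835 in DESeq2. Without NCTD_IT replicate 18 it was 1.04 (adjusted p = 0.206 in edgeR), and leaving out any other single tumor gave 1.65 to 2.09.

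The tumor with the highest Slc7a11 level, NCTD_IT replicate 18, also had the highest neutrophil marker sum of all 23 tumors. That sum was 1093 CPM, against 17.9 to 46.3 CPM in the other NCTD_IT tumors and 2.26 to 8.76 CPM in CONTROL_IT. It was nearly all S100a8 (295 CPM) and S100a9 (758 CPM), calcium-binding proteins abundant in neutrophils, and it also had the highest Malat1 level (692.5 CPM) and mitochondrial share (6.32%). In the other 3 NCTD_IT tumors Slc7a11 was still at or above 8.80 CPM, higher than in every control tumor. Over whole marker lists, the NCTD_IT tumors had macrophage sums of 343 to 1192 CPM against 83.2 to 565.7 CPM in CONTROL_IT, fibroblast sums of 377 to 1656 CPM against 106 to 361 CPM, and melanoma sums of 19269 to 27151 CPM against 26293 to 31953 CPM. Their part in the Slc7a11 level was not tested. When Xist entered the model as a term, the Slc7a11 log2 fold change was 1.40 (adjusted p = 0.997 in edgeR).

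In the other groups the mean level of Slc7a11 was lower than in NCTD_IT, but single tumors reached its range: 8.90 CPM in MIX_IT replicate 22, 11.5 CPM in PTX_IP replicate 3 and 12.5 CPM in MIX_IP replicate 7. MIX_IT, which received the same NCTD dose with PTX, was at 5.78, 8.90, 6.55 and 5.66 CPM, within or just above the controls (log2 fold change 0.34, SE 0.49, adjusted p = 0.814 in edgeR). PTX_IT was at 1.95, 3.54 and 4.37 CPM (log2 fold change -0.69, SE 0.56, adjusted p = 0.852). NCTD_IP was at 3.92 and 4.54 CPM beside CONTROL_IP at 4.47 and 1.80 CPM (log2 fold change 0.46, SE 0.72, adjusted p = 0.999). In PTX_IP the tumors were at 11.5 and 3.93 CPM (log2 fold change 1.33, SE 0.69, adjusted p = 0.906), and the higher one was replicate 3, which was also the tumor with high Sqstm1.

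Gclc and Gclm encode the catalytic and modifier subunits of glutamate-cysteine ligase, the rate-limiting enzyme of glutathione synthesis. Gclc (chromosome 9, 77661817 to 77701767) ranged from 13.9 to 32.3 CPM, and its log2 fold changes lay between -0.33 and 0.22 in the 5 tested comparisons. In NCTD_IT, where Slc7a11 was highest, Gclc was at 18.3, 29.4, 15.9 and 25.6 CPM beside 22.9, 19.5, 13.9 and 20.4 CPM in CONTROL_IT, so the groups overlapped. Gclm (chromosome 3, 122039206 to 122064381) ranged from 28.4 to 64.5 CPM with log2 fold changes of -0.22 to 0.20. The smallest adjusted p of either gene in these comparisons was 0.700 in edgeR. Gclm is overlapped on the opposite strand by Gm17494, a noncoding gene with 16442 counts against 4454 for Gclm, and the strand setting of the counting is not given in the sources used here, so its level is uncertain. The feature Mrnip, opposite Sqstm1, had 54 counts in all.

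Srxn1 (chromosome 2, 151947436 to 151953296), the gene for sulfiredoxin, which restores oxidized peroxiredoxins, was at 12.3, 14.5 and 15.9 CPM in PTX_IT against 23.9, 19.9, 15.1 and 17.5 CPM in CONTROL_IT. The highest PTX_IT tumor lay just above the lowest control, and the log2 fold change was -0.43 (SE 0.26, adjusted p = 0.811 in edgeR). In PTX_IP it was at 22.8 and 12.9 CPM beside 11.5 and 14.0 CPM in CONTROL_IP, and replicate 3 was again the higher tumor. In the remaining 3 tested comparisons its log2 fold change lay between -0.08 and 0.30.

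Nqo1 (chromosome 8, 108114857 to 108129838), a quinone reductase gene often used as a readout of NRF2, was low in every tumor, with 4 to 36 counts. It was at 1.94 and 2.10 CPM in CONTROL_IP, below all 6 treated IP tumors, which were at 3.08 to 7.40 CPM. The log2 fold change was 1.37 in NCTD_IP (SE 0.59, 95% confidence interval 0.05 to 2.69, adjusted p = 0.999 in edgeR) and, in PTX_IP, 1.29 (SE 0.58, 95% confidence interval -0.01 to 2.60, adjusted p = 0.906). The Nqo1 value in NCTD_IP was 0.62 without NCTD_IP replicate 6 and 1.86 without NCTD_IP replicate 5. These comparisons share the 2 CONTROL_IP tumors, which had 10 and 14 counts. In the IT tumors Nqo1 ranged from 1.17 to 8.80 CPM with no group apart, and its log2 fold changes lay between -0.03 and 0.14.

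Hmox1 (chromosome 8, 75820249 to 75827217), the gene for heme oxygenase 1, which breaks heme down to biliverdin, iron and carbon monoxide, was near the limit of detection at 1 to 33 counts per tumor. Counts of 1 and 2 in NCTD_IT replicates 17 and 19 lay under the floor of 3 counts. The NCTD_IT tumors were at 0.174, 2.64, 0.691 and 2.40 CPM, and CONTROL_IT was at 1.54, 2.19, 2.02 and 3.96 CPM (log2 fold change -0.74, SE 0.80, 95% confidence interval -2.42 to 0.95). This Hmox1 value was -0.31 to -1.18 when a single tumor was left out and -4.00 with Xist in the model (adjusted p = 0.997 in edgeR). PTX_IP was at 1.35 and 1.53 CPM below CONTROL_IP at 2.72 and 4.21 CPM, with 9 and 7 counts behind the PTX_IP values (log2 fold change -1.27, SE 0.72, adjusted p = 0.906 in edgeR). A change of up to several-fold in Hmox1 was not detectable at this depth, as its 95% confidence intervals in the 5 tested comparisons ran from -2.88 to 2.23 on the log2 scale.

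**Figure D2:**
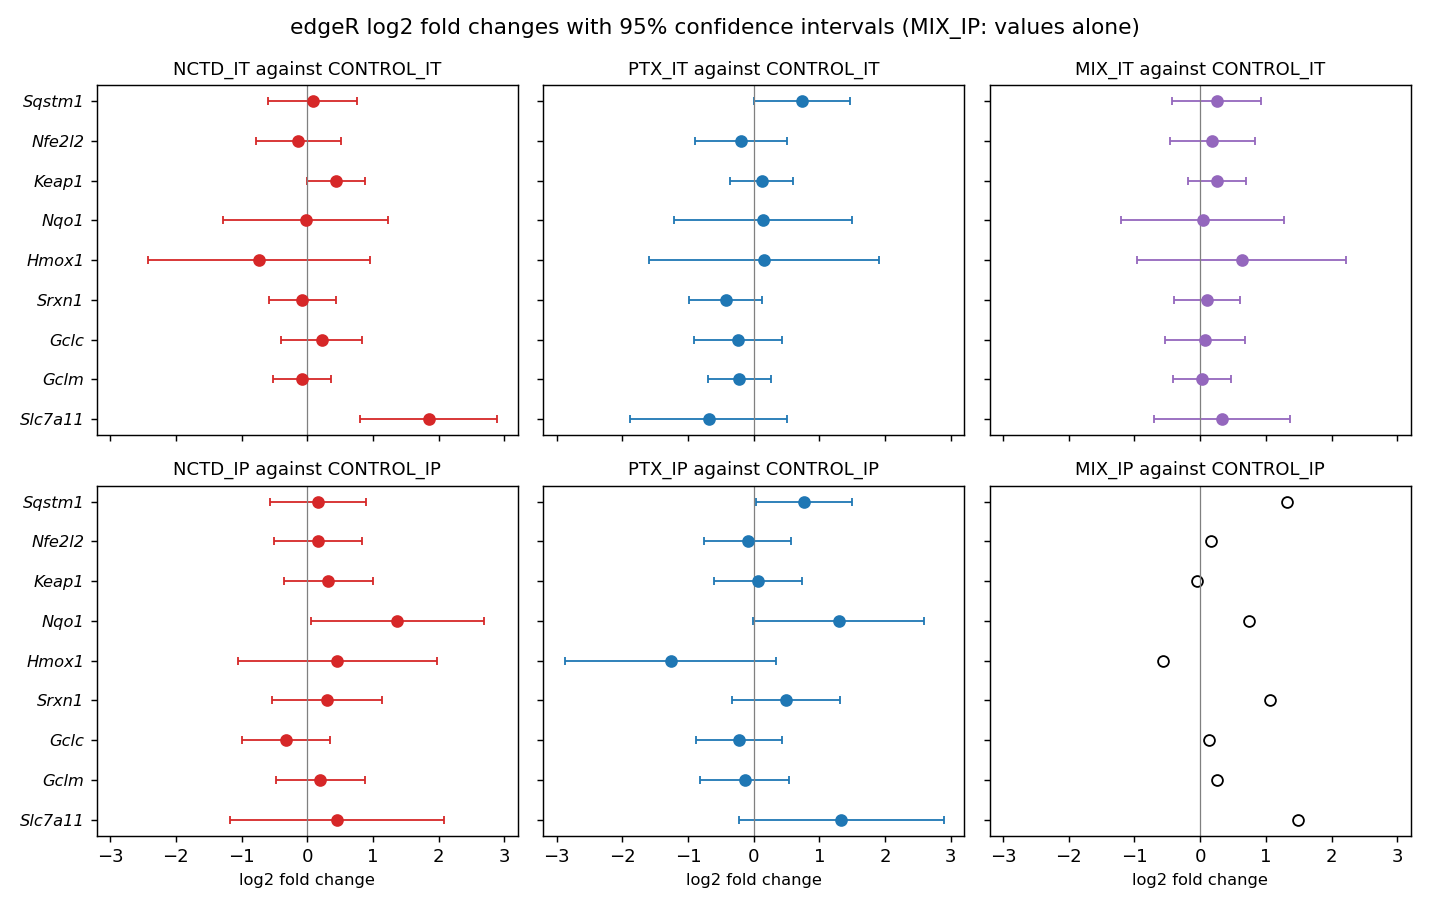
edgeR log2 fold change (horizontal axis) of the 9 genes (rows) against the control of the route in 6 comparisons, with 95% confidence intervals, and for MIX_IP the values alone (open circles). Slc7a11 in NCTD_IT (0.81 to 2.88), Sqstm1 in PTX_IT (0.004 to 1.46) and PTX_IP (0.03 to 1.49) and Nqo1 in NCTD_IP (0.05 to 2.69) are the 4 intervals that lie above 0, before adjustment. The Sqstm1 interval in PTX_IP is a description, as the CONTROL_IP tumors were used to choose Sqstm1.

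The comparison of MIX_IP with CONTROL_IP was used to choose Sqstm1, so its values are a description and support nothing. Sqstm1 was at 787 and 820.0 CPM in MIX_IP, more than any CONTROL_IP tumor (307 and 340 CPM), a log2 fold change of 1.32. Slc7a11 was at 12.5 and 4.77 CPM against 4.47 and 1.80 CPM (log2 fold change 1.50), Srxn1 at 32.4 and 20.5 CPM against 11.5 and 14.0 CPM (1.06), and Nqo1 at 3.13 and 3.65 CPM against 1.94 and 2.10 CPM (0.75). Hmox1 was at 1.30 and 3.37 CPM against 2.72 and 4.21 CPM (-0.57). The values of Nfe2l2, Keap1, Gclc and Gclm differed by -0.04 to 0.26 on the log2 scale. Because the choice of genes used this comparison, the following counts were fixed in part by that choice and are no test. They were 4 of 9 genes whose groups did not overlap (35.8% of all genes), 2 of 9 at an unadjusted p below 0.05 in edgeR (2.94%) and 0 of 9 at an adjusted p below 0.05 in edgeR (0%). DESeq2 called 1, Sqstm1 (0.166% of the genes that it gave an adjusted p), and gave none to Hmox1, Nqo1 and Slc7a11. Nothing is read from these counts.

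The combination was next set beside the single drugs in the IT tumors. Slc7a11 was lower in MIX_IT (5.66 to 8.90 CPM) than in NCTD_IT (8.80 to 44.1 CPM), a log2 fold change of -1.51 (SE 0.48, 95% confidence interval -2.52 to -0.50, adjusted p = 0.803 in edgeR), and the groups overlapped only between 8.80 and 8.90 CPM. In that comparison 0 of 9 genes passed the adjusted p (background 0.00801%) and 1, Slc7a11, had an unadjusted p below 0.05 (background 6.02%). Against PTX_IT, 0 of 9 genes passed either threshold (backgrounds 0% and 3.75%), and Sqstm1 had a log2 fold change of -0.48 (SE 0.34, 95% confidence interval -1.20 to 0.25). The departure of MIX_IT from the sum of both single-drug log2 fold changes was -0.82 for Slc7a11 (SE 0.74) and -0.56 for Sqstm1 (SE 0.47), and 0 of 9 genes passed either threshold (backgrounds 0.0401% and 11.3%). In DESeq2 the smallest adjusted p of a gene in these 3 comparisons was 0.512 (Slc7a11, MIX_IT against NCTD_IT). All 3 share tumors with the comparisons against CONTROL_IT.

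Whether a drug acted differently by route was tested in a model of all 23 tumors, in which route, batch and vehicle cannot be told apart. For NCTD, 0 of 9 genes passed the adjusted or the unadjusted threshold (backgrounds 0% and 10.8%), and the difference for Slc7a11, IT minus IP, was 1.39 (SE 0.91, 95% confidence interval -0.51 to 3.30). For PTX, 0 of 9 passed the adjusted p (background 0%) and 1, Slc7a11, the unadjusted one (background 5.23%), with a difference of -2.01 (SE 0.94, adjusted p = 0.892 in edgeR). The PTX difference for Sqstm1 was -0.03 (SE 0.56, 95% confidence interval -1.20 to 1.14). It holds the CONTROL_IP values used to choose Sqstm1, so it is a description. The smallest adjusted p in DESeq2 was 0.798 for NCTD, where 6 of the 9 genes were given none, and 0.851 for PTX. For MIX, 0 of 9 genes passed the adjusted p (background 0%) and 1, Srxn1, the unadjusted one (background 7.44%). The MIX differences were -1.05 for Sqstm1 (SE 0.55) and -0.95 for Srxn1 (SE 0.44), and they are a description, since they hold the MIX_IP values that chose Sqstm1.

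Over the 8 groups the mean level of Sqstm1 was highest in MIX_IP (803 ± 23.6 CPM, SD, n = 2), followed by PTX_IT (623 ± 48.2, n = 3), PTX_IP (550 ± 313, n = 2), MIX_IT (450.1 ± 269.5, n = 4), NCTD_IT (397 ± 122, n = 4), CONTROL_IT (375 ± 28.8, n = 4), NCTD_IP (362 ± 19.4, n = 2) and CONTROL_IP (323 ± 23.4, n = 2). Of the 7 pairs of neighbours in that order, the mean ± SD ranges were apart for 1, MIX_IP and PTX_IT. The MIX_IP and CONTROL_IP levels were used to choose Sqstm1, so their places in this order are a description. Nqo1 also had 1 pair of neighbours apart, between CONTROL_IP, its lowest group (2.02 ± 0.114 CPM, n = 2), and the next. For the other 7 genes no neighbours were apart by that measure. Slc7a11 was highest in NCTD_IT (19.2 ± 16.7 CPM, n = 4) and lowest in CONTROL_IP (3.13 ± 1.88 CPM, n = 2).

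Sqstm1 did not follow the other 8 genes across the 23 tumors. After the mean of each route was subtracted, its Pearson r with them ran from -0.34 for Gclc to 0.26 for Srxn1. The 5 genes whose log2 CPM was most like that of Sqstm1, of 13394 compared, were Mmp8 (r = 0.72), Tent4b (0.68), 1110051M20Rik (0.66), Arhgef2 (0.66) and Sergef (0.65). Those most like Hmox1 were Gm12709 (0.79), Tbc1d2b (0.70) and Has2 (0.69). These values describe likeness over 23 tumors that share the same 8 groups, and they rank the top of many genes. The tumors include those of MIX_IP and CONTROL_IP, which were used to choose Sqstm1, so its values are a description.

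Over the 15 IT tumors, the 36 pairs of the 9 genes had a median r of 0.12, and 0 pairs had an adjusted p below 0.05 in the permutation test (2 had an unadjusted p below 0.05). The highest was Nqo1 with Srxn1, with r = 0.63 (two-sided permutation p = 0.0116, adjusted p = 0.416) and rho = 0.55 (p = 0.0366, adjusted p = 0.343), and r fell to 0.35 without the 2 tumors farthest from the median of Nqo1. Srxn1 with Gclm gave r = 0.57 (two-sided permutation p = 0.0282, adjusted p = 0.507) and rho = 0.56 (p = 0.0329, adjusted p = 0.343), and r was 0.56 without the 2 farthest tumors. The lowest was Sqstm1 with Gclc at r = -0.51 (two-sided permutation p = 0.0520, adjusted p = 0.530) and rho = -0.55 (p = 0.0381, adjusted p = 0.343), with r = -0.47 without the 2 farthest.

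In the 8 IP tumors Sqstm1 and Srxn1 had r = 0.85 (rho = 0.79) and Sqstm1 and Slc7a11 had r = 0.74 (rho = 0.71). These 8 tumors gave 0 pairs with an adjusted p below 0.05 and 3 with an unadjusted one in the exact permutation test. The 2 pairs had r = -0.28 and r = -0.05 in the IT tumors. The IP values include the MIX_IP tumors used to choose Sqstm1, so they are a description. After each group mean was subtracted, r was 0.62 for Srxn1 and 0.55 for Slc7a11, and PTX_IP replicate 3 was above replicate 4 for all 3 genes.

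**Figure D3:**
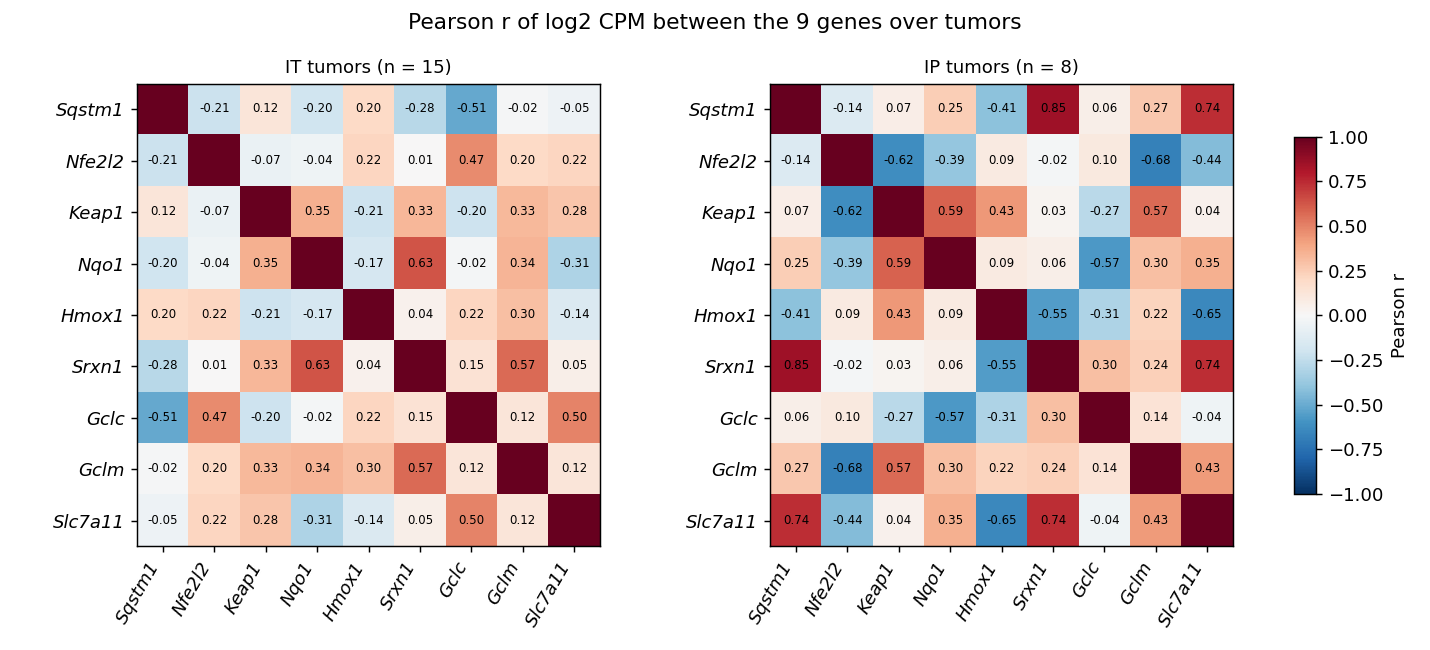
Pearson r of log2 CPM for each pair of the 9 genes over the 15 IT tumors (left) and the 8 IP tumors (right), on a color scale from -1 to 1. In the IT tumors r ran from -0.51 to 0.63, and in the IP tumors the 3 pairs among Sqstm1, Srxn1 and Slc7a11 had the highest values, 0.74 to 0.85.

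The wider pathway was read from 6 lists of other genes, described by their counts and medians. In NCTD_IT 2 of their 72 tested genes passed the adjusted p in edgeR, beside 1.37% of all genes. Both calls were lost without CONTROL_IT replicate 11, without CONTROL_IT replicate 12, without NCTD_IT replicate 18 and with Xist in the model, where 0 of all genes passed. At least 1 of the 2 was lost without CONTROL_IT replicate 9 and without NCTD_IT replicate 17, where 1 of all genes passed. Cbr1, a carbonyl reductase and NRF2 target, was lower, with a log2 fold change of -0.94 (SE 0.22, adjusted p = 0.0482 in edgeR). It was at 14.6 to 24.2 CPM in NCTD_IT, below the 35.5 to 43.6 CPM of CONTROL_IT. Ftl1, the ferritin light chain gene, was higher, with a log2 fold change of 5.14 (SE 1.00, adjusted p = 0.0300 in edgeR) and 33.4, 1991, 340.5 and 4730 CPM in NCTD_IT against 28.5 to 65.9 CPM in CONTROL_IT. The higher level was in 3 tumors, and replicate 17 lay within the controls. A near-identical copy, Ftl1-ps1, was at 39.6, 25.0, 65.0 and 27.5 CPM in these NCTD_IT tumors and 41.6 to 73.0 CPM in CONTROL_IT, and reads that fit both cannot be assigned with certainty, so the Ftl1 value is uncertain. The marker sums given with Slc7a11 come from these same tumors, and their part in the Cbr1 and Ftl1 levels was not tested. Within NCTD_IT, replicate 20, with the highest Ftl1 level, had the highest macrophage sum (1192 CPM) and the lowest fibroblast sum (377 CPM).

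Of the 15 tested glutathione and thioredoxin genes, 0 passed the adjusted p in NCTD_IT, 5 had a lower level and 0 a higher level at an unadjusted p below 0.05 (21.6% of all genes, in either direction), and the list median was -0.42 beside 0.03 over all genes. The 5 were the glutathione transferase genes Gstp1, Gstm1, Gstm5 and Gsta4 and the peroxiredoxin gene Prdx6, named after their values were seen. DESeq2 called the same 5, beside 12.5% of all genes. Gstp1 was at 2244 and 2600 CPM in 2 of the CONTROL_IT tumors and at 164 and 99.3 CPM in the other 2, and its near-identical copy Gstp-ps ran from 240.4 to 3105 CPM over all tumors, so its level is uncertain. The NADPH and detoxification list of 15 had a median of -0.08, with Cbr1, Akr1b8 and Esd lower and 0 higher at an unadjusted p below 0.05. The heme and iron list of 6, without Hmox1, had a median of -0.39. At an unadjusted p below 0.05 1 of them was higher and 2 were lower, beside 21.6% of all genes. DESeq2 also called 1 higher and 2 lower, beside 12.5% of all genes. The ferritin heavy chain gene Fth1 was at -1.06 (adjusted p = 0.0550 in edgeR, 2.60e-05 in DESeq2). The 11 tested NRF2 partners and regulators had a median of 0.33, with Bach2 and Gsk3b higher and Dpp3 lower at an unadjusted p below 0.05. In PTX_IT and MIX_IT 0 genes of these 4 lists passed the adjusted p in edgeR, and their medians lay between -0.29 and 0.09. At an unadjusted p below 0.05, 7 of their 47 genes were lower and 0 higher in PTX_IT (6.35% of all genes, in either direction), and 5 were lower and 5 higher in MIX_IT (13% of all genes). DESeq2 called Gsta4 in both, and Blvra in MIX_IT, all lower, beside 0.12% of all genes in PTX_IT and 5.17% in MIX_IT.

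The autophagy list held genes of autophagy adaptors and ATG8 proteins, and also Ulk1, Becn1, Tfeb and Tfe3. Its medians were near 0. The median of 14 genes was -0.09 in NCTD_IT, 0.06 in PTX_IT and -0.13 in MIX_IT, with 0 genes below the adjusted p in edgeR. At an unadjusted p below 0.05, Ncoa4 and Tollip were higher in NCTD_IT and in MIX_IT. In MIX_IT they were the only 2 of 14, beside 13% of all genes. At that threshold Map1lc3b and Gabarapl2 were lower in NCTD_IT, which made 4 of 14 there, beside 21.6% of all genes. DESeq2 called Tollip in NCTD_IT (0.54), beside 12.5% of all genes. In PTX_IT, where Sqstm1 was above control in all 3 tumors, 0 of the 14 had an unadjusted p below 0.05, beside 6.35% of all genes. That count is near the share. The ATF4 list held Atf4 and targets of ATF4, a stress transcription factor that also acts on Slc7a11. Its medians were below 0 in the IT groups, and none of its genes passed the adjusted p in edgeR. In NCTD_IT 10 of 11 had a level lower than in CONTROL_IT (median -0.76), with Asns, Psat1, Slc3a2 and Ddit4 lower and Slc7a5 higher at an unadjusted p below 0.05. Slc3a2 encodes the heavy chain that xCT pairs with at the membrane, and its log2 fold change was -0.73 (adjusted p = 0.0759 in edgeR, 0.00342 in DESeq2). The counts were 4 lower and 0 higher in PTX_IT (median -0.58) and 7 lower and 1 higher in MIX_IT (median -0.77), and 0 passed the adjusted p in edgeR in any of the 3, beside the shares of all genes given above (21.6%, 6.35% and 13%). DESeq2 called 1 higher and 3 lower in NCTD_IT and in MIX_IT and 0 in PTX_IT. Of all genes that it gave an adjusted p, it called 12.5% in NCTD_IT, 5.17% in MIX_IT and 0.12% in PTX_IT. In PTX_IT and MIX_IT 10 of 11 were likewise lower.

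In the IP tumors 0 genes of the 6 lists passed the adjusted p in edgeR or in DESeq2. An unadjusted p below 0.05 was found for 1 of their 73 tested genes in NCTD_IP (Gstm1, higher, beside 3.59% of all genes), for 5 in PTX_IP (Gstp1, Blvra, Ftl1 and Atf4 higher and Idh1 lower, beside 5.3%) and for 3 in MIX_IP (Mafg and G6pdx higher and Gsta4 lower, beside 2.94%). These counts are near or, in NCTD_IP, below the background shares. The ATF4 list had a median of 0.10 in NCTD_IP, 0.34 in PTX_IP and 0.41 in MIX_IP, against medians over all genes of -0.01 to 0.01. In MIX_IP all 11 tested genes of the ATF4 list were above CONTROL_IP, by 0.17 to 0.75 on the log2 scale. The 3 listed genes with the largest values in MIX_IP, given as a description, were Gsta4, a glutathione transferase gene (-1.13), and the stress genes Trib3 (0.75) and Ddit3 (0.75). The autophagy list of 15 had a median of -0.08 in MIX_IP beside the Sqstm1 value of 1.32.

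**Figure D4:**
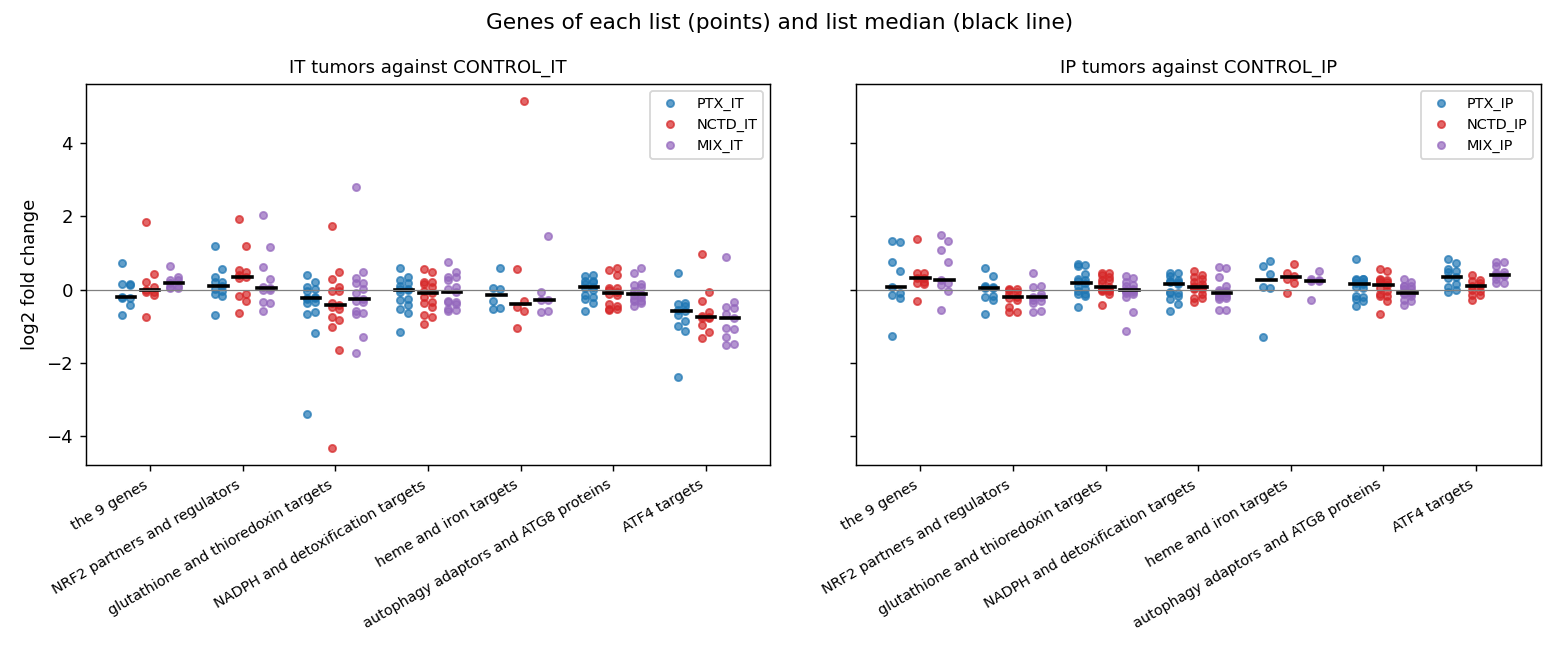
edgeR log2 fold change (vertical axis) of the 9 genes and of the genes of each list (points) with the list median (black line) for PTX, NCTD and MIX against the control of the route, in the IT tumors (left) and the IP tumors (right). ATF4 list medians lie at -0.58 to -0.77 in the IT tumors and at 0.10 to 0.41 in the IP tumors, and the highest point in NCTD_IT is Ftl1 (5.14).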

How the data were processed

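The members of the gene set, the pathway lists and the marker lists were chosen with earlier results of these data known. Counts of all 23 tumors were used (2861578 to 6702374 per tumor). RNA from tumors was made into 3′ mRNA libraries (Collibri kit). Per the labels and the submitters' processing notes, the authors checked reads with FastQC, trimmed them with Trimmomatic, aligned them with STAR 2.7.11b to GRCm39 and deposited raw counts per gene. The annotation, strand setting, treatment of reads that fit several genes and any use of molecular identifiers are not given in the sources used here.

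From the deposited counts, genes with enough counts (filterByExpr of edgeR 4.0.16, minimum count 10, minimum total 15) were scaled by TMM, leaving 12480 genes in the IT model, 12424 in the IP model and 13395 over all 23 tumors. edgeR's quasi-likelihood test was fitted to the 4 groups of a route together, and route differences to all tumors, with Benjamini-Hochberg adjustment over all genes tested. Confidence intervals are at 95%. DESeq2 was also the tool of the authors, and here version 1.42.0 was run on the 2 groups compared (R 4.3.3; limma 3.58.1). Its adjusted p was left missing where it gave none. log2 CPM used a prior count of 2. Correlations used two-sided permutation tests (100000 permutations, or all orders for 8 tumors) in Python 3. Tests were checked on simulated data. The floor of 3 counts covers counting error only. Replicates of a group differed by more than sampling noise in every pair. Named genes were the 9 members, listed genes with an adjusted p below 0.05 against the control of the route (at most 4 per list), the 3 listed genes with the largest values in MIX_IP, markers and Xist where they stand beside a result, and the genes most like Sqstm1 and Hmox1. Other listed genes, named where an unadjusted p was below 0.05 or where DESeq2 called them, were chosen after their values were seen. Alternatives were other scaling, filters, gene sets, samples in the model, a covariate, thresholds and leaving out each tumor. The gene length listed by the authors was not used. Coordinates in GRCm39 are those of the table, and promoter windows are in the RefSeq build GRCm38.p6.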

Additional observations from a re-analysis of the deposited data

Results flagged for a closer look

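Slc7a11 in NCTD_IT replicate 18, at 44.1 CPM, lay apart from the other 3 tumors of its group, which were at 8.80 to 14.5 CPM. The gap to the nearest tumor made up 0.838 of the range of the group, above Dixon's 95% critical value for 4 samples. This was the only value so marked among 27 sets of 4 tumors (9 genes in 3 groups), where chance marks about 1 in 20. The same tumor had the highest neutrophil marker sum, Malat1 level and mitochondrial share of the 23 tumors, and their part in its Slc7a11 level was not tested. Of the 27 differences between routes, none passed the adjusted threshold of edgeR, and 2 (Slc7a11 for PTX and Srxn1 for MIX) had an unadjusted p below 0.05.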

How the results depend on the processing

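The count of genes called was 0 of 9 in each of the 12 comparisons. It became 1 in NCTD_IT (Slc7a11) with DESeq2 (1554 genes called in all) and with a threshold of 0.10 (989 of 12480 genes). The same held in edgeR with no filter on low counts (adjusted p = 0.00298, 1190 of 26878 genes) and with all 23 tumors in a model (adjusted p = 0.0387, 777 of 13395 genes). It became 1 in PTX_IT (Sqstm1) with DESeq2 (15 genes called in all). In MIX_IP it became 1 with DESeq2 (11 genes) and with no filter (51 genes), which is no test since Sqstm1 was chosen there. It stayed at 0 under the other settings, and in the IT comparisons it was 0 when any IT tumor was left out. Over all genes, the NCTD_IT count then ran from 0 (without CONTROL_IT replicate 11) to 191 of 12402 (without CONTROL_IT replicate 10). The count of correlated pairs in the IT tumors, 0 of 36, was 0 with Spearman's rho, after subtracting group means and with DESeq2's size factors, and 0 to 1 when a tumor was left out (1 without PTX_IT replicate 15). Of 690 recomputed log2 fold changes, 654 moved by less than the spread between replicates, 30 moved further and 6 passed the threshold that they had missed. None reversed a call, which says little, since the main setting made 0 calls and a sign change was counted only with a call. Signs did change without a call, for example for Nqo1 in NCTD_IT in 5 of 15 alternatives. The causes were not tested. No paired analysis was possible because the groups share no replicate numbers. Leaving out a tumor in a group of 2 leaves 1, which is assumed to vary like the other groups. Depth limits Hmox1 and Nqo1, with at most 36 counts in a tumor. It also limits Slc7a11, with 7 to 150 counts in a tumor.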
